A study of Mus musculus with 4 samples.

Results

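Capillary-arterial endothelial cells (ECs) were examined in the single-cell transcriptomes of inflamed mouse spinal cord. They were taken as 2712 of 26525 cell barcodes that held at least 2000 UMIs (unique molecular identifiers, each standing for 1 captured mRNA molecule) and under 10% mitochondrial UMIs, and as 2712 of the 12338 such barcodes in a general endothelial gate. A barcode entered the endothelial gate with at least 5 UMIs of Cldn5, Cdh5, Egfl7 and Esam together, at most 2 of the leukocyte genes Ptprc, Laptm5 and Coro1a, and at most 1 of the pericyte genes Pdgfrb, Kcnj8 and Abcc9. It was a capillary-arterial member when the markers Cxcl12, Mfsd2a, Ddc and Sema3c summed to at least 4 UMIs, with at most 2 UMIs of the arterial genes Bmx, Sema3g, Gkn3 and Hey1, at most 2 of the capillary-venous genes Slc38a5 and Tfrc, none of the venous gene Ackr1, and at most 4 of Trp53i11, Tubb6 and Apln. These genes chose the members, so their levels are given below as a description only.

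The spinal cords came from mice with experimental autoimmune encephalomyelitis (EAE), a model of multiple sclerosis induced in all groups by immunization with the myelin peptide MOG35-55 in complete Freund's adjuvant, followed by 2 doses of pertussis toxin. The study asked how angiopoietin 2 (Ang2) shapes the inflamed vasculature, with 1 10x library for each of 4 conditions. Wild-type C57Bl/6JOlaHsd mice aged 15 weeks received a mouse IgG1 control antibody (mIgG1) or an Ang2-blocking antibody (Ang2 Ab) from the day of immunization, had 400 ng of pertussis toxin per dose, and were sampled at 14 days post immunization. C57Bl/6JCrl mice aged 12 to 14 weeks were either single-transgenic littermates (Ctrl) or VE-cadherin-tTA;Tet-OS-Ang2 double transgenics (EC-Ang2), had 200 ng of toxin per dose, and were sampled at 12 days. The VE-cadherin promoter drives the EC-Ang2 transgene in endothelium throughout the body, with doxycycline food holding it off until birth, and the Ctrl mice carry 1 of its 2 parts. No uninflamed library was analysed here. CD31+ ECs and CD45+ leukocytes were sorted in equal numbers and run together, so the share of ECs in a library was set by the sort. How many animals made up each library is not given in the sources used here. With 1 library per condition there is no replicate, so no test was possible and no p-value is given. Each value carries a 95% interval for counting error only, which leaves out animal-to-animal and library-to-library variation.

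Brain and spinal cord capillaries form a continuous gradient from the arterial to the venous side, and the capillary-arterial stretch follows the arteriole. Its ECs make the blood-brain barrier (BBB): tight junctions seal the paracellular path, transcytosis is kept low by the lipid transporter Mfsd2a, and carriers such as the glucose transporter Slc2a1 supply the tissue. Ang2 is an endothelial ligand of the receptor Tie2 (encoded by Tek) that can act against its relative Ang1 and so loosen the vessel wall, and leukocytes enter the inflamed cord mainly on the venous side.

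The members numbered 530 in the mIgG1 library, 728 in Ang2 Ab, 1156 in Ctrl and 298 in the EC-Ang2 library. Of the endothelial-gate barcodes they made up 18.1% (exact binomial interval 16.7 to 19.5) in mIgG1, 21.0% (19.6 to 22.4) in Ang2 Ab, 32.7% (31.2 to 34.3) in Ctrl and 12.4% (11.1 to 13.8) in the EC-Ang2 library. The Ctrl library had the highest share and the EC-Ang2 library the lowest. These shares cannot be read as cell numbers, because the gate genes themselves differed between the libraries: over the whole endothelial gate, Cxcl12 stood at 394 UMIs per 1000000 (CPM) in mIgG1, 448 in Ang2 Ab, 811 in Ctrl and 174 in the EC-Ang2 library. A lower level per cell and fewer cells of the type cannot be told apart by such a gate. The summed member UMIs were 1981960 in mIgG1, 2482885 in Ang2 Ab, 4704890 in Ctrl and 1305463 in the EC-Ang2 library, out of library totals of 66631583, 57954609, 52084739 and 52796061. The median member held 3467.5, 2914.5, 3797.5 and 3633 UMIs in that order, against 4727, 3627, 4279 and 6129 in the endothelial gate.

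**Figure D1:**
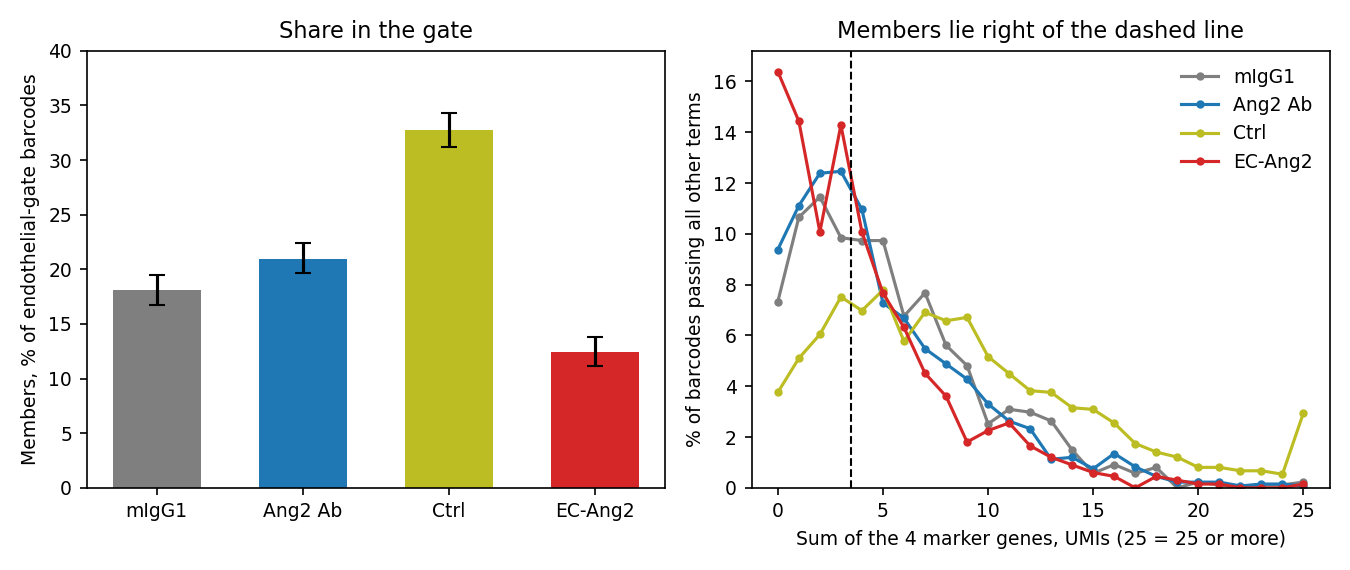
Left, members as a percent of endothelial-gate barcodes in each library (bars start at 0; error bars, 95% exact binomial interval), from 12.4% in EC-Ang2 to 32.7% in Ctrl. Right, among barcodes that met every other gate term, the percent at each sum of Cxcl12, Mfsd2a, Ddc and Sema3c UMIs, a continuous distribution that the threshold of 4 (dashed line) divides.

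All 4 libraries supplied members with the 4 markers. A Cxcl12 UMI, the transcript of the chemokine that retains CXCR4+ leukocytes at the vessel wall, was found in 95.2% of members, Sema3c in 78.1%, Mfsd2a in 60.3% and Ddc, the enzyme that decarboxylates L-DOPA, in 35.9%. Of the 2712 members 426 held all 4 markers, 1197 held 3, 926 held 2 and 163 held 1. The marker sum had a median of 7 in both antibody libraries, against 9 for Ctrl and 6 for EC-Ang2, and reached 49. It formed no gap at the threshold: 402 members lay just inside with a sum of 4 and 459 barcodes just outside with a sum of 3, at median depths of 3218.5 and 3270 UMIs. Membership is a threshold on a per-cell sum, and no clustering was run. Cldn5, which encodes claudin 5 and is also a gate gene, stood at 8400 CPM in mIgG1, 6439 in Ang2 Ab, 6095 in Ctrl and 6495 in the EC-Ang2 library.

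Other material in the member barcodes was limited but uneven. Of the members 440 in mIgG1, 624 in Ang2 Ab, 967 in Ctrl and 261 in the EC-Ang2 library held no UMI of the 3 leukocyte genes of the gate. The 12 genes of a microglia and macrophage list summed to 3510 CPM in mIgG1, 2556 in Ang2 Ab, 1671 in Ctrl and 1379 in the EC-Ang2 library, with Apoe the most abundant, and 7 granulocyte genes summed to 269, 541, 975 and 1147 CPM, with Lcn2 (which ECs also make) the most abundant. T cell genes stayed at or below 22.96 CPM and fibroblast genes at or below 8.43 CPM in sum. From 6 myeloid genes (C1qa, C1qb, C1qc, Lyz2, Fcer1g and Tyrobp), free RNA (transcripts loose in the droplets) was estimated to make up at most 7.65% of member UMIs in mIgG1, 8.32% in Ang2 Ab, 4.37% in Ctrl and 4.65% in the EC-Ang2 library. The estimate takes all UMIs of these 6 genes together as free RNA, so it cannot show where their own UMIs came from. The pericyte and smooth muscle list of 11 genes summed to 480, 429, 516 and 273 CPM, with Rgs5 the most abundant. The haemoglobin gene Hbb-bs had 0 UMIs in the mIgG1 members, 5163 in Ang2 Ab, 17502 in Ctrl and 3057 in the EC-Ang2 library, and 0, 4, 23 and 1 members respectively held 10 or more haemoglobin UMIs. Leaving those 28 barcodes out moved no count of higher or lower genes past 1.5 times. The libraries shared 6 member barcodes over their 6 pairings, and 373 of all barcodes with at least 2000 UMIs, against 357.8 expected of independent draws.

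For the comparisons, UMIs were summed over the members of a library and scaled to CPM. A gene entered a comparison with a UMI in at least 10% of the members of either library and at least 50 UMIs in both together, and was called higher or lower past 1.5-fold, a rule of size and not a test. Of 4746 genes compared between Ang2 Ab and mIgG1, 281 (5.92%) differed, 149 (3.14%) higher with the antibody and 132 (2.78%) lower. Of 5279 compared between EC-Ang2 and Ctrl, 378 (7.16%) differed, 228 (4.32%) higher with overexpression and 150 (2.84%) lower. The median log2 ratio over all genes was 0.01 in both. The control libraries, in which Ang2 was not the intended difference, stood as far apart: of 4992 genes 334 (6.69%) differed, 166 (3.33%) higher and 168 (3.37%) lower in Ctrl than in mIgG1. Substrain, age, day, toxin dose, antibody injections, transgene and library cannot be told apart in that comparison, and it shares a library with each of the others. It shows how large a difference between single libraries can be without a planned change in Ang2.

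Among the gate markers, Cxcl12 (chr6:117168535-117181367, plus strand) stood at 1331 CPM in mIgG1, 1313 in Ang2 Ab, 1628 in Ctrl and 852 in the EC-Ang2 library. It was lowest in EC-Ang2 even among barcodes chosen for it. Mfsd2a (chr4:122946850-122961188, minus strand) followed the same order of the transgenic pair at 274.5, 272.7, 396.6 and 235.2 CPM. Ddc was at 105, 123, 155 and 144 CPM, and Sema3c at 431, 634, 462 and 463 CPM. The antibody pair thus differed least in Cxcl12 and Mfsd2a and most in Sema3c, where the Ang2 Ab library was highest.

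Of 7 capillary-arterial genes that the gate did not use, 4 were lower and 0 higher in EC-Ang2 than in Ctrl (median log2 ratio -0.69, against 0.01 over all genes, of which 2.84% were lower). Between Ang2 Ab and mIgG1, 1 was higher and 2 were lower (median -0.37), beside 3.14% and 2.78% over all genes. Rgcc, a complement-responsive regulator of the cell cycle, was at 504 CPM in mIgG1, 389 in Ang2 Ab, 673 in Ctrl and 290 in the EC-Ang2 library. EC-Ang2 was the lowest library, with a log2 ratio to Ctrl of -1.21 (95% interval -1.37 to -1.06) that ranged from -1.30 to -0.99 over the alternative settings. Tgfb2, a TGF-beta ligand, was at 117, 96.7, 112 and 60.5 CPM, a log2 ratio of -0.88 (-1.24 to -0.54) in EC-Ang2 over Ctrl. Spock2, a matrix proteoglycan, was at 1108, 1298, 1072 and 663 CPM, with a log2 ratio of -0.69 (-0.80 to -0.59) for the transgenic pair. The steps of Spock2 and Tgfb2 lost 1.5-fold under some settings, where their ratios came to -0.31 and -0.54, and the list median came to -0.31. Slc26a10 was lower in the treated library of each pair, at 68.1 CPM in mIgG1 and 27.8 in Ang2 Ab, and at 75.2 in Ctrl and 40.6 in EC-Ang2. Ivns1abp was the gene higher with the antibody, at 117 CPM in mIgG1 and 217 in Ang2 Ab (log2 ratio 0.89, 0.67 to 1.12, but 0.50 with tightened exclusions), against 154 in Ctrl and 129 in EC-Ang2. Slc16a1, which carries lactate and ketone bodies, was lower with it, at 190 against 114 CPM. Glul, glutamine synthetase, was at 2251, 1608, 1928 and 1644 CPM and passed 1.5-fold in neither pair.

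Angpt2 (chr8:18690263-18741562, minus strand) is the gene of Ang2 itself, which the EC-Ang2 mice overexpress. It was at 89.5 CPM in Ctrl and 617 in EC-Ang2, a log2 ratio of 2.79 (2.61 to 2.96). It was also higher in the library treated with the blocking antibody, at 41.4 CPM in mIgG1 and 291 in Ang2 Ab, a log2 ratio of 2.81 (2.48 to 3.16). A step of this size was thus present without a transgene, so Angpt2 in these members does not check the transgenic label. Angpt2 is also one of 5 capillary-venous genes on a list (with Scgb3a1, Car4 and the gate genes Slc38a5 and Tfrc), which summed to 1151 CPM in mIgG1, 3472 in Ang2 Ab, 2779 in Ctrl and 2816 in the EC-Ang2 library. All 5 lay above 0 in the antibody pair and 1 of the 5 in the transgenic pair, and the part of capillary-venous ECs in the Angpt2 ratio was not tested. The antibody and transgenic pairs reached their Angpt2 ratios differently. After each member was thinned to 2000 UMIs, an Angpt2 UMI was found in 5.66% of members in mIgG1 and 21.8% in Ang2 Ab, but in 9.34% in Ctrl and 16.8% in EC-Ang2. Without thinning the shares were 8.11, 26.9, 13.8 and 23.8%. Among immune barcodes the thinned shares were 0.214, 0.932, 0.164 and 2.32% (median depths 7087, 5875, 6655 and 7327.5 UMIs). The study reported much less Ang2 in myeloid cells than in ECs, but not none. In EC-Ang2 a single member held 338 of the 806 Angpt2 UMIs, and the 10% of members with most of it held 92.6%. Without the 5% of members with most UMIs, the log2 ratio for the transgenic pair was 1.84, and over all settings it ranged from 1.67 to 2.90, against 2.37 to 3.56 for the antibody pair. The receptors differed less. Tek was at 268, 213, 179 and 173 CPM and Tie1 at 190, 157, 179 and 179 CPM, with no step of 1.5-fold in either pair. Itga5, the alpha5 integrin subunit that can also bind Ang2, was at 13.8 CPM in Ctrl and 27.6 in EC-Ang2, from 65 and 36 UMIs (log2 ratio 1.00, but 0.27 with the gate on thinned counts), and its partner Itgb1 was even at 298, 293, 288 and 296 CPM.

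**Figure D2:**
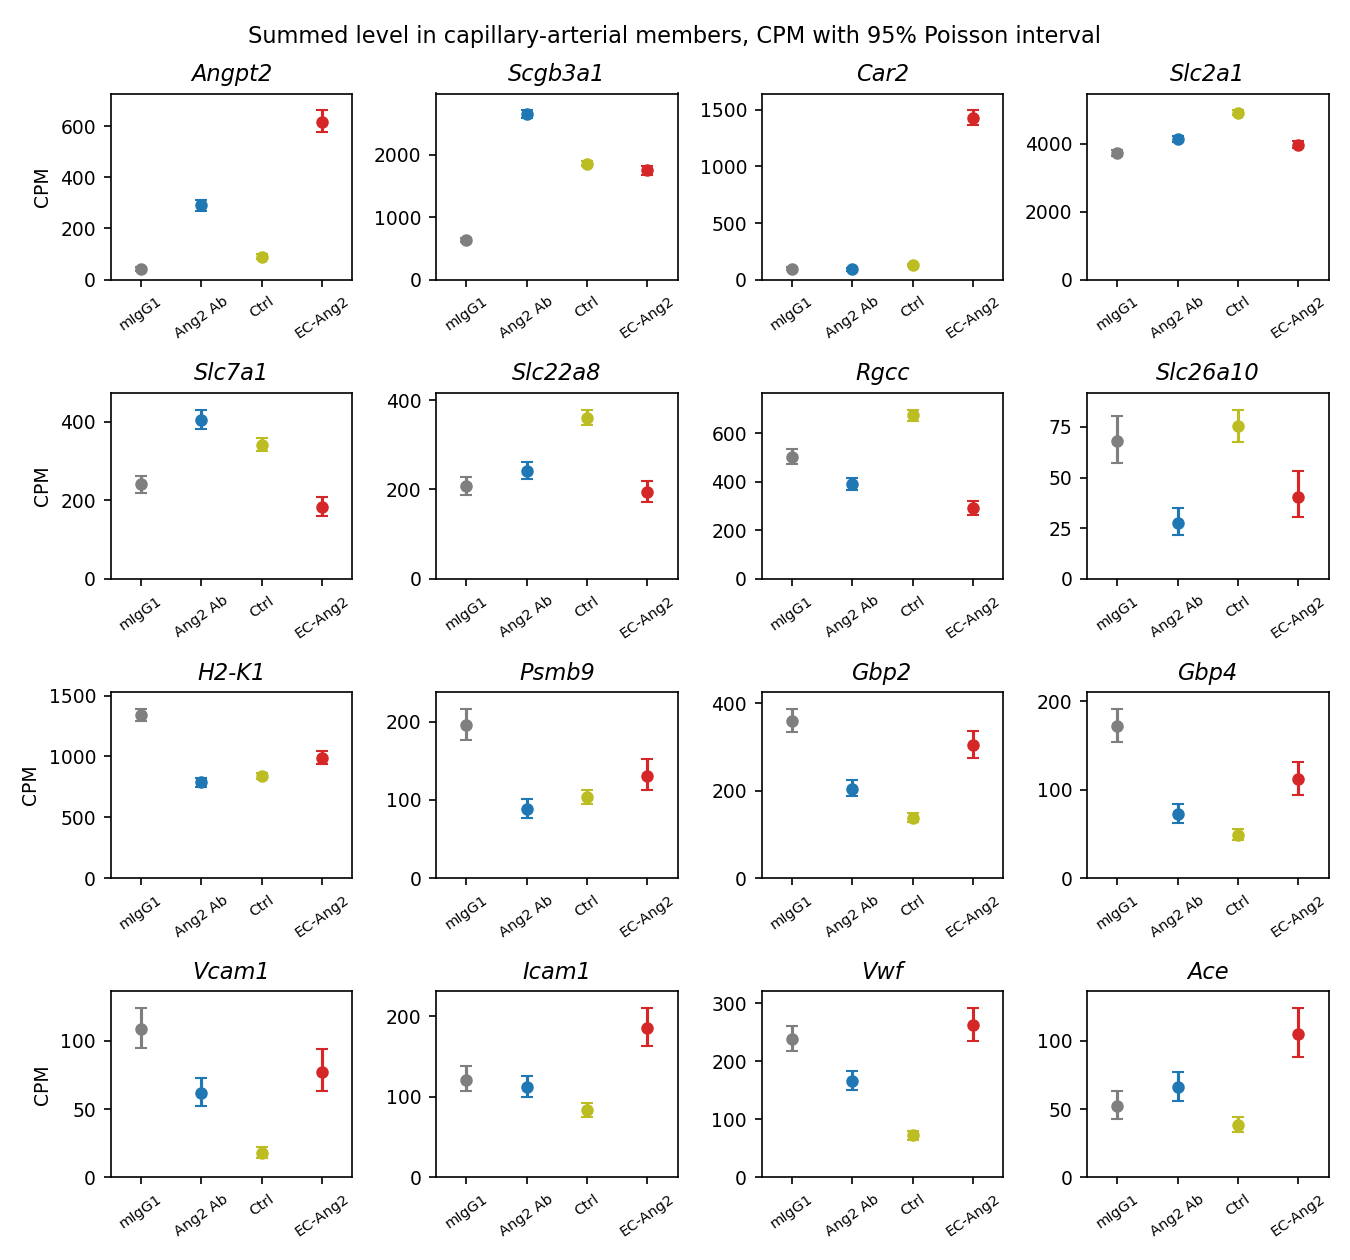
Summed level of 16 genes in the members of each library, in CPM on linear axes from 0 (points; error bars, 95% Poisson interval for counting error). Angpt2 is higher in the treated library of each pair, Scgb3a1 is lowest in mIgG1, Slc7a1 moves in opposite directions in the 2 pairs, and H2-K1, Psmb9, Gbp2 and Gbp4 are highest in mIgG1.

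After Angpt2, the log2 ratio with the antibody whose interval lay farthest from 0 was that of Scgb3a1 (chr11:49663610-49665118, plus strand), a secretoglobin that the study used to mark capillary-venous ECs. It stood at 632 CPM in mIgG1, 2650 in Ang2 Ab, 1862 in Ctrl and 1757 in the EC-Ang2 library. The mIgG1 library was the low one: Ang2 Ab was above it by a log2 ratio of 2.07 (1.98 to 2.16), Ctrl by 1.56, and the transgenic pair differed by -0.08. A UMI was found in 36.2% of thinned members in mIgG1, 59.3% in Ang2 Ab, 47.1% in Ctrl and 51.3% in the EC-Ang2 library (45.5, 68.0, 58.3 and 60.7% unthinned), against 3.37, 16.5, 7.33 and 3.34% of immune barcodes. The highest member held 231 UMIs. Among other genes higher with the antibody were Zbtb16, a zinc-finger transcription factor, at 15.6 CPM in mIgG1 and 83.0 in Ang2 Ab (log2 ratio 2.41, 1.86 to 3.00), and Bcr at 53.5 and 178 CPM. For both the Ctrl library, with no antibody, was also above mIgG1, at 48.9 CPM for Zbtb16 and 105 for Bcr.

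Car2, carbonic anhydrase 2, had the largest ratio of the transgenic pair, at 128 CPM in Ctrl and 1428 in EC-Ang2 (log2 ratio 3.48, 3.35 to 3.62), and was at 97.4 CPM in mIgG1 and 91.4 in Ang2 Ab. Only the EC-Ang2 library was high. A UMI was found in 16.8, 16.9, 20.8 and 30.5% of thinned members in the order mIgG1, Ang2 Ab, Ctrl and EC-Ang2 (26.4, 24.0, 36.0 and 44.6% unthinned), against 1.12, 1.92, 2.02 and 5.16% of immune barcodes, so the shares lay much closer together than the sums. The 10% of EC-Ang2 members with most of it held 91.3% of its UMIs and 1 member held 153. Over the alternative settings the log2 ratio ranged from 2.45 to 3.75. Serpina3g, a serine protease inhibitor gene, was at 29.3 CPM in Ctrl and 145 in EC-Ang2, and Adamts4, a matrix protease, at 5.31 and 38.3 CPM. Over the alternative settings their log2 ratios ranged from 0.28 to 2.44 and from 0.42 to 3.03, so both lost the 1.5-fold step under some. Igfbp4, an IGF-binding protein abundant in arterial ECs, was at 58.0 and 311 CPM (log2 ratio 2.42). The ratio fell to 0.06 when the arterial, capillary-venous and sprouting exclusions were tightened, which leaves 261 Ctrl and 79 EC-Ang2 members. The intervals farthest below 0 in EC-Ang2 were those of the complement genes C1qa, C1qb and C1qc, the chemokine genes Ccl3, Ccl4 and Ccl12, and Ly86. Of 8 entered genes of the microglia and macrophage list 4 were lower and 1 higher, beside 2.84% and 4.32% over all genes. C1qa, a microglial complement gene, was at 116 CPM in Ctrl and 23.7 in EC-Ang2. The free RNA estimate came to at least 94.2% of its UMIs in each library. C1qa is among the genes that set that estimate, so a value near all of its UMIs is built in and the source was not tested. Other genes lower in EC-Ang2 included Pltp, the phospholipid transfer protein, at 2425 CPM in Ctrl and 1124 in EC-Ang2 (log2 ratio -1.11, -1.19 to -1.03), and Itm2a at 5911 and 3183 CPM.

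Of 22 BBB transporters that entered, 20 were not gate genes. Of the 20, 1 was higher and 2 were lower in Ang2 Ab than in mIgG1 (median log2 ratio -0.02), beside 3.14% higher and 2.78% lower over all genes, while 0 were higher and 2 lower in EC-Ang2 than in Ctrl (median -0.30, with 15 of the 20 below 0), beside 2.84% lower over all genes. The gate genes among the 22 were Tfrc and Mfsd2a. Mfsd2a helped to choose the members, so its EC-Ang2 ratio of -0.75 is a description only. Under some settings that ratio fell short of 1.5-fold, at -0.47 at the weakest. Over the alternative settings the EC-Ang2 median of the 22 ranged from -0.40 to -0.13. Slc2a1 (chr4:119108711-119137983, plus strand), the GLUT1 glucose transporter, was at 3718 CPM in mIgG1, 4138 in Ang2 Ab, 4911 in Ctrl and 3967 in the EC-Ang2 library. It was highest in Ctrl, and neither pair reached 1.5-fold. Slc7a1, the CAT1 carrier of cationic amino acids, moved in opposite directions: it was at 241 CPM in mIgG1 and 405 in Ang2 Ab (log2 ratio 0.75, 0.59 to 0.91), and at 342 in Ctrl and 184 in EC-Ang2 (-0.89, -1.10 to -0.70). At 3000 UMIs per member the antibody ratio of Slc7a1 was 0.48, below 1.5-fold. Slc22a8, the OAT3 organic anion transporter, was at 208 and 242 CPM in the antibody pair and at 361 in Ctrl and 195 in EC-Ang2 (-0.89, -1.09 to -0.70). Slc6a6, the taurine transporter, was at 1320 CPM in mIgG1 and 757 in Ang2 Ab, with 848 in Ctrl and 662 in EC-Ang2. The efflux pumps were steady, Abcb1a (P-glycoprotein) at 692, 623, 637 and 656 CPM and Abcg2 at 976, 934, 1105 and 938 CPM. Slco1a4, an organic anion transporter, was at 1835, 1889, 1959 and 1497 CPM. Car4, a membrane carbonic anhydrase of capillaries, was at 302, 335, 647 and 302 CPM, with Ctrl the only high library.

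None of the 11 junction genes that entered and that the gate did not use passed 1.5-fold in either pair (median log2 ratios -0.09 and 0.05), and neither did Cldn5, Cdh5 and Esam, which the gate used. Of 19 genes of Wnt signalling and barrier differentiation, 1 was higher and 1 lower with the antibody and 0 higher and 3 lower in EC-Ang2 (medians 0.19 and -0.08), beside 3.14% higher and 2.78% lower with the antibody and 2.84% lower in EC-Ang2 over all genes. Axin2, a feedback target of Wnt/beta-catenin signalling, was at 21.2 CPM in mIgG1, 33.8 in Ang2 Ab, 31.9 in Ctrl and 19.1 in the EC-Ang2 library, from 42, 84, 150 and 25 UMIs, and its transgenic ratio turned from -0.74 to 0.57 with tightened exclusions. Its antibody ratio of 0.67 came to 0.54 at the lowest. Notum, a Wnt deacylase, was at 44.9, 41.5, 55.7 and 29.1 CPM, and Nkd1, a feedback inhibitor, at 211, 168, 240 and 154 CPM. Both were lowest in EC-Ang2. Tnfrsf19, also a Wnt target, was lower with the antibody, at 94.4 against 47.9 CPM. Of 9 caveolar and transcytosis genes Cav1, the structural protein of caveolae, was lower in the treated library of each pair, at 343 and 217 CPM in the antibody pair and 363 and 212 in the transgenic pair. In the Notch list of 7 genes, of which the gate used Hey1, 2 were higher and 0 lower in each pair (medians 0.27 and 0.22), beside 3.14% and 4.32% higher over all genes. They were Dll4 and Notch1 with the antibody, at 44.4 against 78.9 CPM and 54.0 against 83.4 CPM, and Notch4 and Nrarp in EC-Ang2, at 35.1 against 55.9 CPM and 33.8 against 59.0 CPM in Ctrl and EC-Ang2. Under some settings Notch1 (0.32), Notch4 (0.36) and Nrarp (0.41) lost the 1.5-fold step, and so did Cav1, at -0.52 in the antibody pair and -0.53 in the transgenic pair. The list of 25 nuclear genes of oxidative phosphorylation had 0 genes past 1.5-fold in either pair. The dissociation stress list of 21, a sign of sample handling, had 2 higher with the antibody and 0 in EC-Ang2, beside 3.14% and 4.32% over all genes, but 18 of the 21 lay above 0 in the antibody pair (median log2 ratio 0.21) against 10 in the transgenic pair (median -0.03), and 16 in Ctrl over mIgG1 (median 0.18). The part of handling in the antibody pair was not tested.

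**Figure D3:**
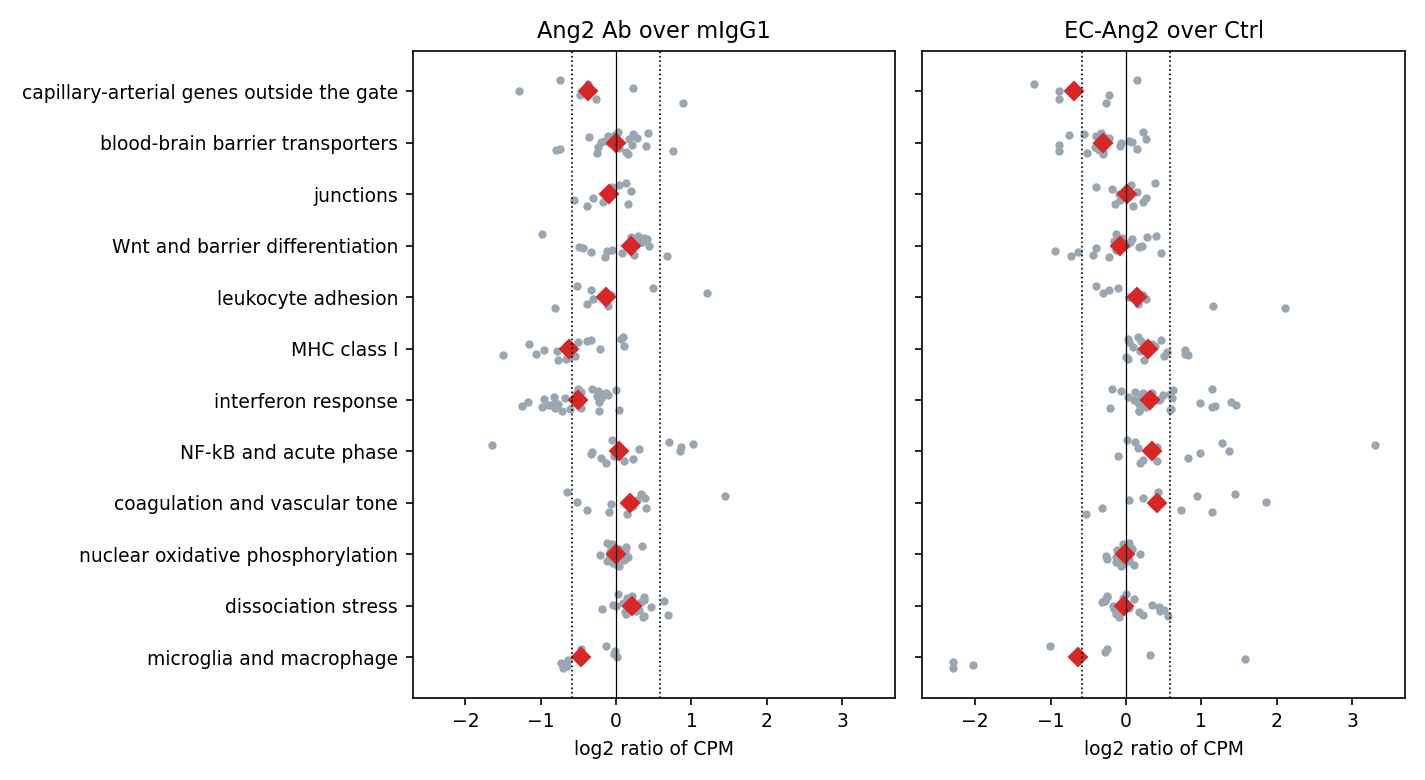
Log2 ratio of CPM for each gene that entered (grey points) and the list median (red diamonds) in 12 gene lists, Ang2 Ab over mIgG1 on the left and EC-Ang2 over Ctrl on the right, with dotted lines at 1.5-fold. The median of MHC class I was -0.63 with the antibody and 0.29 in EC-Ang2, and that of the junction list, with its 3 gate genes, was -0.10 and 0.02.

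Most genes of antigen presentation by MHC class I were lower with the antibody. Of 19, which display intracellular peptides to CD8 T cells, 0 were higher and 11 lower in Ang2 Ab than in mIgG1 (median log2 ratio -0.63), beside 2.78% lower over all genes. The count of lower genes was 8 to 12 over the alternative settings and the median -0.69 to -0.57. H2-K1 (chr17:33996017-34000347, minus strand), a classical heavy chain, was at 1339 CPM in mIgG1, 787 in Ang2 Ab, 839 in Ctrl and 988 in the EC-Ang2 library (log2 ratio of the antibody pair -0.77, -0.85 to -0.68). H2-D1 was at 3178, 2008, 2168 and 2207 CPM, and B2m, the shared light chain, at 4970, 3219, 4071 and 4083 CPM. Psmb9, a subunit of the immunoproteasome, was at 196, 88.2, 104 and 131 CPM (-1.15, -1.40 to -0.91). In each of these genes mIgG1 was the highest of the 4 libraries, and the Ctrl library was also lower: 9 of the 19 genes were lower and 0 higher in Ctrl than in mIgG1 (median -0.55), beside 3.37% lower over all genes. The step was spread over the members, since the class I sum of the median member at 2000 UMIs was 24 UMIs in mIgG1, 15 in Ang2 Ab, 18 in Ctrl and 17 in the EC-Ang2 library.

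In the transgenic pair 3 of the 19 MHC class I genes were higher and 0 lower in EC-Ang2 (median 0.29), beside 4.32% higher over all genes. They were H2-Q6, at 20.4 CPM in Ctrl and 36.0 in EC-Ang2, H2-Q7, at 55.9 and 96.5 CPM, and Tap1, a subunit of the peptide transporter, at 56.7 and 98.0 CPM. H2-Q6 and H2-Q7 are close copies whose reads can be shared, so each value is uncertain. Without the 5% of members with most UMIs 0 of 18 passed (median 0.11), as did 0 of 17 after thinning. With the gate on thinned counts the median turned to -0.010. MHC class II genes, which ECs can carry in inflammation, could not be told apart from free RNA: for Cd74, the invariant chain, at 442, 333, 123 and 262 CPM, the free RNA estimate came to 121, 142, 173 and 83.7% of its UMIs.

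Interferon-response genes followed the same lines. Of 31 compared in the antibody pair 0 were higher and 13 lower with the antibody (median log2 ratio -0.50), beside 2.78% lower over all genes, and of 30 compared in the transgenic pair 10 were higher and 0 lower in EC-Ang2 (median 0.31), beside 4.32% higher over all genes. In the control libraries 14 were lower and 0 higher in Ctrl than in mIgG1, beside 3.37% lower over all genes. Gbp2 (chr3:142620602-142638008, plus strand), a guanylate-binding protein of the defence against intracellular microbes, was at 360 CPM in mIgG1, 205 in Ang2 Ab, 138 in Ctrl and 305 in the EC-Ang2 library. The log2 ratios were -0.81 (-0.98 to -0.65) and 1.14 (0.96 to 1.33). Gbp4 was at 172, 72.1, 49.1 and 112 CPM, Gbp5 at 118, 62.8, 37.2 and 103 CPM, and the GTPase gene Igtp at 175, 99.5, 86.1 and 170 CPM. All had the order mIgG1 and EC-Ang2 high, Ang2 Ab and Ctrl low. Iigp1 was at 190, 162, 97.8 and 256 CPM and Zbp1, a nucleic acid sensor, at 99.4, 70.1, 42.7 and 94.2 CPM, with a step of 1.5-fold in the transgenic pair alone. The antibody ratio of Iigp1, -0.23, ranged from -0.86 to -0.03 over the settings, and so passed 1.5-fold under at least 1 of them. With tightened exclusions the antibody ratio of Zbp1 turned from -0.50 to 0.12, and with the gate on thinned counts its transgenic ratio was 0.19. Irgm1 was at 133, 59.2, 96.7 and 107 CPM, with a step of 1.5-fold in the antibody pair alone. Irf7, a master regulator of the type I response, was at 397, 259, 209 and 316 CPM, and Isg15 at 496, 431, 353 and 541 CPM.

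Counts and medians moved under the alternatives in both pairs. The number of interferon response genes lower with the antibody was 8 to 17, with 8 of 26 and a median of -0.19 where the exclusions were tightened. In EC-Ang2 the median ranged from 0.15 to 0.42, and the number higher was 4 of 30 without the 5% of members with most UMIs, 4 of 24 after thinning, 5 of 30 with a marker sum of at least 6, and 3 of 30 when the gate was applied to thinned counts. For Gbp2 the transgenic ratio was 0.52 without the deepest members and 0.21 with a marker sum of at least 6, and 1 EC-Ang2 member held 131 of its 398 UMIs. The transgenic ratio ranged from 0.26 to 1.21 over the settings for Igtp, from 0.55 to 1.81 for Gbp4 and from 0.34 to 1.57 for Gbp5. A Gbp2 UMI was found in 32.3% of thinned members in mIgG1, 18.8% in Ang2 Ab, 19.2% in Ctrl and 20.1% in the EC-Ang2 library (45.7, 27.9, 32.4 and 35.6% unthinned). Leukocytes express the gene themselves, with a UMI in 29.0, 36.9, 53.9 and 48.4% of immune barcodes, and the free RNA estimate came to at most 12.6% of its member UMIs. The median member held 16, 12, 12 and 13 UMIs of the interferon list at 2000 UMIs, so the typical EC-Ang2 member lay 1 UMI above the typical Ctrl member.

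**Figure D4:**
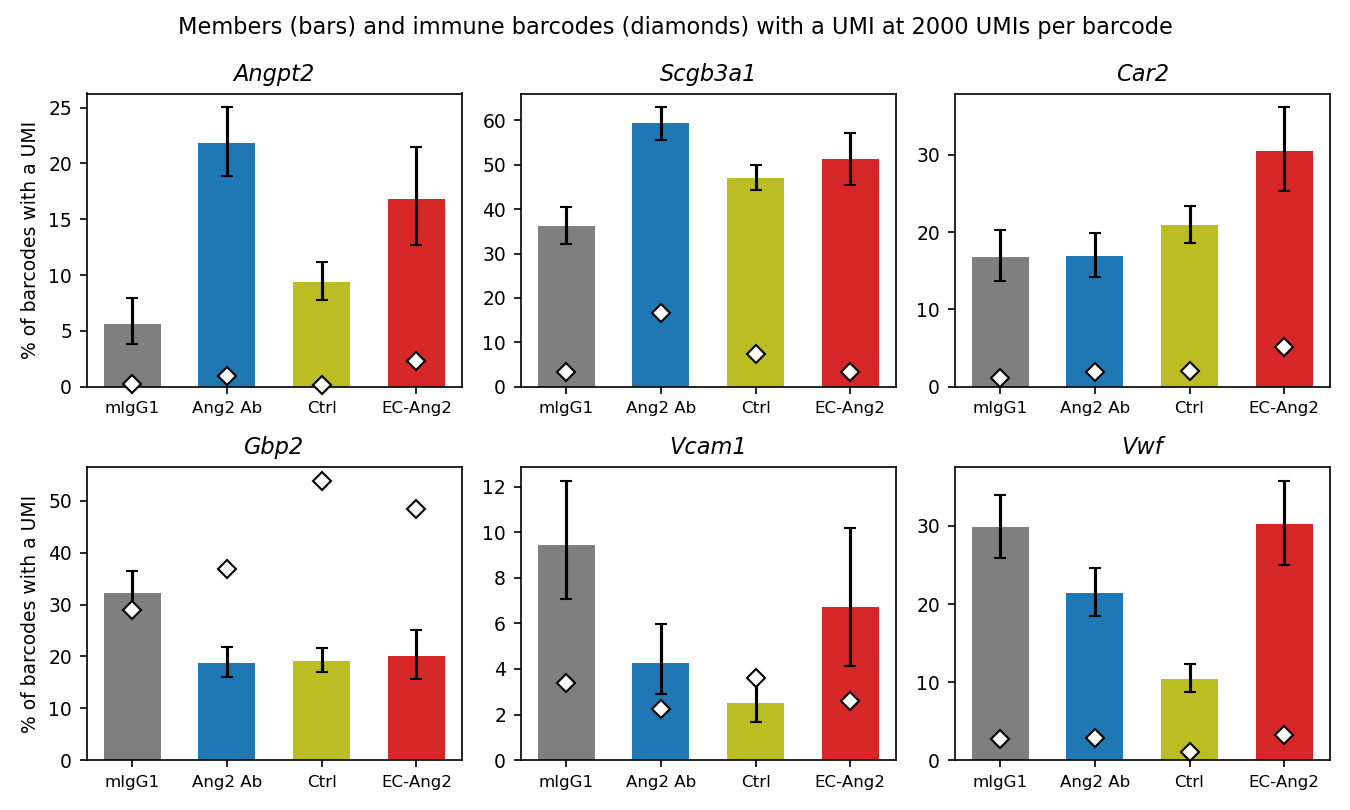
Percent of members with a UMI of each gene after thinning to 2000 UMIs (bars from 0; error bars, 95% exact binomial interval) and the same percent in immune barcodes (diamonds). For Gbp2 mIgG1 is the high library at 32.3%, for Vwf Ctrl is the low library at 10.4%, and for Vcam1 the Ctrl bar lies below its diamond.

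The genes that differed in both pairs were read directly, since these pairs share no library. Of 4664 genes that entered both, 22 were lower with the antibody and higher in EC-Ang2. Over the alternative settings 19 of the 22 were recomputed and 3, Saa3, Prcp and Ctla2a, stayed past 1.5-fold both ways in each. For Saa3, H2-Aa and Lyz2 of the 22 the free RNA estimate reached all of their UMIs in at least 1 library, though Lyz2 is among the genes that set the estimate. Irf7 came to -0.26 and 0.30. The 22 were 19.8% of the 111 genes lower with the antibody and 16.2% of the 136 higher in EC-Ang2, where over all 4664 genes 2.92% were higher in EC-Ang2 and 2.38% lower with the antibody. Beside Gbp2, Gbp4, Gbp5, Igtp, Irf7, Tap1, H2-Q6 and H2-Q7 they included Ctla2a, an endothelial cysteine protease inhibitor gene, at 3747 CPM in mIgG1, 2195 in Ang2 Ab, 1774 in Ctrl and 3512 in the EC-Ang2 library. Prcp, a carboxypeptidase of the kinin system, was at 51.5, 27.0, 28.7 and 69.7 CPM, and Il18bp, a decoy for interleukin 18, at 55.5, 33.4, 18.9 and 37.5 CPM, with a transgenic ratio of 0.13 to 1.17 over the settings. In the opposite direction there were 5 genes, of 142 higher with the antibody and 114 lower in EC-Ang2 among the 4664. Over all genes of each comparison 3.14% were higher with the antibody and 2.84% lower in EC-Ang2, and nothing is read from the count of 5. The 5 were led by the chemokine gene Ccl4 (log2 ratios 1.16 and -2.25). Of the 4 recomputed, Ccl4 was the only 1 past 1.5-fold both ways in all settings. The size of its antibody ratio depended on free RNA, since it came to 4.63 with free RNA taken off. Whether the Ccl4 UMIs came from the ECs was not tested. Slc7a1, Axin2 (whose transgenic ratio was 0.57 with tightened exclusions) and Lgalsl were also among the 5. Another 15 were higher in both, led by Angpt2, and included Lrg1, Ptgs2 and Timp1, and 14 were lower in both, among them Slc26a10, Fut8, Ttyh2 and Cav1. The 15 were among 142 genes higher with the antibody, beside 2.92% of all 4664 higher in EC-Ang2. The 14 were among 114 genes lower in EC-Ang2, beside 2.38% of all 4664 lower with the antibody. Of the genes named here, Slc7a1 (0.48 with the antibody), Lgalsl (0.41 with the antibody and -0.39 in EC-Ang2), Axin2, Lrg1 (0.56 with the antibody), Ptgs2 (0.32 in EC-Ang2), Timp1 (0.54 and 0.26 in the 2 pairs), Fut8 (-0.27 with the antibody), Ttyh2 (-0.57 in EC-Ang2) and Cav1 fell short of 1.5-fold under at least 1 setting.

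The study listed 35 genes as inversely regulated in capillary-venous ECs of these same libraries. In the capillary-arterial members 26 of the 33 that entered were lower with the antibody and 20 of 33 higher in EC-Ang2, with none the other way, and 25 of 33 were lower in Ctrl than in mIgG1. Over all genes 2.78% were lower with the antibody, 4.32% higher in EC-Ang2 and 3.37% lower in Ctrl than in mIgG1. That list was chosen on these samples and neighbouring cells, so the count is a description and not independent evidence.

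**Figure D5:**
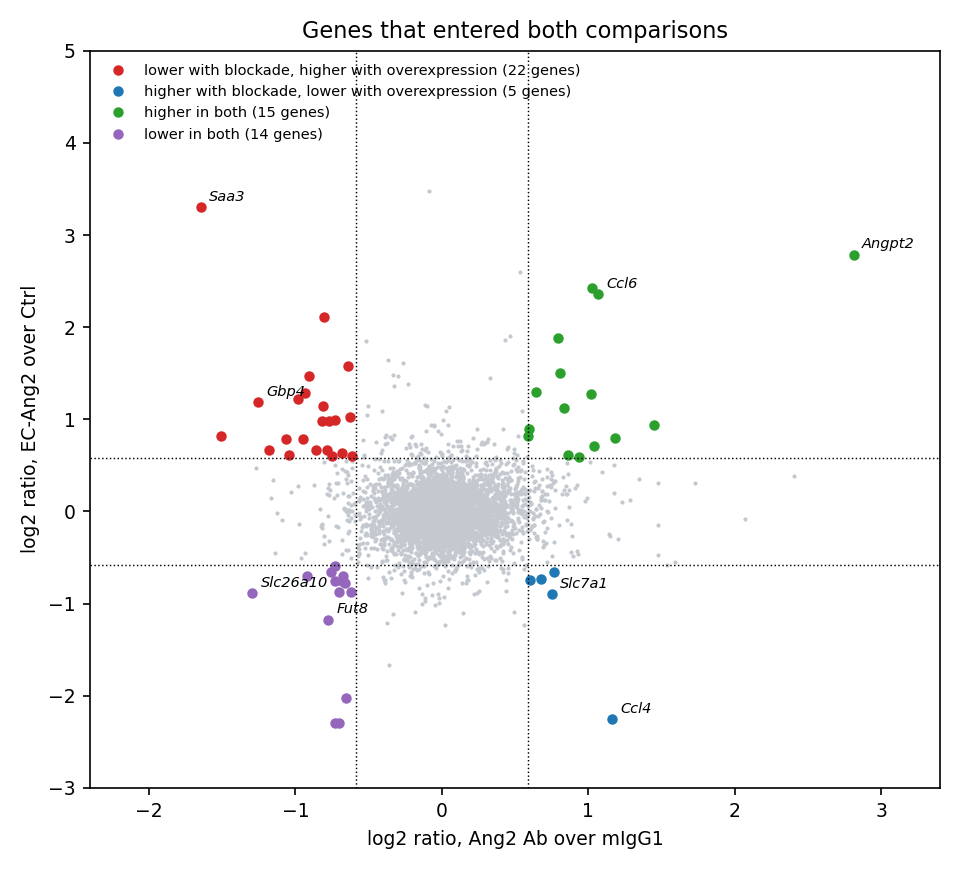
Log2 ratio of EC-Ang2 over Ctrl against that of Ang2 Ab over mIgG1 for 4664 genes that entered both (grey), with the genes past 1.5-fold (dotted lines) in both pairs coloured by combination. The 22 red genes at upper left were lower with the antibody and higher in EC-Ang2, and the 5 blue genes were the reverse.

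The promoters of Gbp2, Gbp5 and Igtp are shown because these 3 interferon-response genes were among the 22 and held a match to the core letters GAAA, any 2 bases and GAAA again, the motif that interferon regulatory factors bind, searched on both strands. Each run below is the 250 bases before the RefSeq start of the gene, 5′ to 3′ on the strand of the gene, with matches in capitals, where TTCNNNGAA (the motif STAT dimers bind, the same on both strands) was also searched. Positions are in GRCm38.p6 from RefSeq, and the GENCODE genes of Gbp2 and Gbp5 start earlier, at chr3:142620602 and chr3:142493978.
Gbp2, chr3:142620413-142620662, plus strand: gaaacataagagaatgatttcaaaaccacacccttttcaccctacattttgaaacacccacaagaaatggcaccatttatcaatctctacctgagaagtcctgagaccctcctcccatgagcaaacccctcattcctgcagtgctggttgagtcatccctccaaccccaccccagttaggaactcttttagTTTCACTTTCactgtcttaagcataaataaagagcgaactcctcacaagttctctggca
Gbp5, chr3:142496684-142496933, plus strand: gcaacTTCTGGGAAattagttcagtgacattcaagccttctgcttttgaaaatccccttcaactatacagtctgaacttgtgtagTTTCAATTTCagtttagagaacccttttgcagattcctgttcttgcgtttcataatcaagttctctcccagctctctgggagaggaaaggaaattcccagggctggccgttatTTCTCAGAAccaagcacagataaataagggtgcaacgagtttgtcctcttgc
Igtp, chr11:58199306-58199555, plus strand: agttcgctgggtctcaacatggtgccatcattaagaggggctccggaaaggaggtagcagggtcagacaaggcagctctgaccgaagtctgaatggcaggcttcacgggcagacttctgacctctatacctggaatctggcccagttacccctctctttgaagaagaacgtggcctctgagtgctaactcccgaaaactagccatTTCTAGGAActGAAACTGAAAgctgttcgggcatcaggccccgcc
The GAAA pair began 59 bases before the start in Gbp2, 165 in Gbp5 and 34 in Igtp. The TTCNNNGAA matches began 245 and 52 bases before the start in Gbp5 and 45 in Igtp. Of the 22 genes 20 had a promoter entry, 26 entries in all. The GAAA pair was present in 4 of them, in Gbp2, Gbp5, Igtp and Saa3, and in 3.44% of all 32851 promoters of the same length (250 bases before to 50 after the start). TTCNNNGAA was present in 5 entries, in Cd82, Ctla2a, Gbp5 and Igtp, and in 8.30% of all promoters. A match describes the letters and is not a measured binding site.

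The list of leukocyte adhesion genes summed to 22086 CPM in mIgG1, 16106 in Ang2 Ab, 18500 in Ctrl and 14942 in the EC-Ang2 library. The glycoprotein gene Bsg alone supplied 18570.5, 12916.8, 15415.7 and 11693.9 CPM in that order, so the sums mostly follow this 1 gene of the list. Of 11 that entered, 1 was higher and 1 lower with the antibody and 2 were higher and 0 lower in EC-Ang2 (medians -0.14 and 0.14), beside 3.14% higher and 2.78% lower with the antibody and 4.32% higher in EC-Ang2 over all genes. Vcam1 (chr3:116109949-116129688, minus strand), the ligand of alpha4 integrins on lymphocytes, was at 108.5 CPM in mIgG1, 62.0 in Ang2 Ab, 17.9 in Ctrl and 77.4 in the EC-Ang2 library, from 215, 154, 84 and 101 UMIs. Ctrl was the lowest library. The log2 ratio was -0.81 (-1.11 to -0.50) with the antibody and 2.12 (1.68 to 2.55) in EC-Ang2, and -2.60 between the control libraries. The thinned share of members with a UMI was 9.43, 4.26, 2.51 and 6.71% (14.7, 5.63, 4.84 and 10.4% unthinned), against 3.37, 2.25, 3.61 and 2.61% of immune barcodes, so the Ctrl share lay below that of its immune barcodes. Free RNA was estimated at 11.1, 16.3, 42.7 and 17.2% of its UMIs. The antibody ratio was -0.14 with a marker sum of at least 6 and 0.39 with the tightened exclusions, and the EC-Ang2 ratio was 0.75 with the gate on thinned counts. Icam1, the ligand of LFA-1, was at 122, 112, 83.3 and 185 CPM. It was highest in EC-Ang2, with a log2 ratio to Ctrl of 1.15 (0.92 to 1.39) that ranged from 0.71 to 1.38. Mcam was higher with the antibody, at 17.2 against 39.5 CPM (log2 ratio 0.57 to 1.85 over the settings), and Ctrl was also above mIgG1 by a log2 ratio of 1.02.

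Of 12 genes of coagulation and vascular tone, 5 were higher and 0 lower in EC-Ang2 (median log2 ratio 0.41), beside 4.32% higher over all genes, and 1 was higher and 1 lower with the antibody (median 0.19), beside 3.14% and 2.78%. Vwf (chr6:125546774-125686679, plus strand), the von Willebrand factor that tethers platelets, was at 238 CPM in mIgG1, 166 in Ang2 Ab, 72.5 in Ctrl and 262 in the EC-Ang2 library. Ctrl was the low library, and the log2 ratio of EC-Ang2 to it was 1.85 (1.63 to 2.07), with 1.55 to 2.09 over the settings. A Vwf UMI was found in 29.8, 21.4, 10.4 and 30.2% of thinned members (44.7, 32.7, 18.9 and 46.0% unthinned) and in 2.73, 2.85, 1.04 and 3.17% of immune barcodes. Vwf is also on the list of venous genes, which summed to 502, 606, 797 and 1218 CPM, with Lcn2 the most abundant and the gate gene Ackr1 at 0. Of 4 venous genes that entered in the transgenic pair 2 were higher in EC-Ang2 (median 0.71), beside 4.32% over all genes, and the part of venous-side ECs in the coagulation list was not tested. Ace, angiotensin-converting enzyme, was at 52.5, 66.1, 38.5 and 105 CPM, and Tfpi, the tissue factor pathway inhibitor, at 38.9, 36.2, 47.4 and 105 CPM. Both were highest in EC-Ang2. Ptgs2, cyclooxygenase 2, was higher in the treated library of each pair, at 32.3 and 88.2 CPM with the antibody and 42.3 and 81.2 CPM in the transgenic pair, where the ratio of 0.94 came to 0.32 with tightened exclusions. Adm, the vasodilator adrenomedullin, was lower with the antibody, at 100.4 against 64.0 CPM (-0.65, with -0.96 to -0.45 over the settings).

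Of the NF-kB and acute phase list, 4 of 14 genes were higher and 1 lower with the antibody (median 0.04) and 5 of 15 higher and 0 lower in EC-Ang2 (median 0.34, but 0.07 with tightened exclusions), beside 3.14% higher with the antibody and 4.32% in EC-Ang2 over all genes. Lrg1, a secreted glycoprotein of TGF-beta signalling in vessels, was higher in the treated library of each pair, at 257 CPM in mIgG1 and 521 in Ang2 Ab (log2 ratio 1.02, 0.87 to 1.17) and at 235 in Ctrl and 568 in EC-Ang2 (1.28, 1.14 to 1.41). Lcn2, a siderophore-binding protein, was at 200, 363, 641 and 850 CPM, and its transgenic ratio turned from 0.41 to -0.85 with tightened exclusions. Bcl3 and Socs3, both feedback regulators of inflammatory signalling, were higher with the antibody, at 30.3 against 54.4 and 198 against 321 CPM. The Ctrl library, with no antibody, was also above mIgG1 for both, by log2 ratios of 0.67 and 0.53. Birc3 was higher in EC-Ang2, at 23.8 in Ctrl and 61.3 CPM. Saa3, serum amyloid A3, had the largest opposite step of the 22 genes, at 58.0, 18.5, 6.38 and 62.8 CPM, but free RNA was estimated at 73.7, 115, 320 and 54.2% of its UMIs, so an EC source could not be shown. Of 5 chemokine and cytokine genes that entered and that the gate did not use, 0 were higher and 3 lower with the antibody (median -0.61), beside 3.14% and 2.78% over all genes. In EC-Ang2 2 of the 5 were higher and 1 lower (median 0.31), beside 4.32% and 2.84%. Cxcl1, which draws neutrophils, was at 59.5, 73.7, 112 and 189 CPM. Only the transgenic pair passed 1.5-fold for it, a step lost with a marker sum of at least 6 (0.30) and with tightened exclusions (0.48).

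The members were set beside ECs of the arterial gate (at least 3 UMIs of the arterial genes; 214, 256, 320 and 169 barcodes) and of the capillary-venous gate (at least 3 UMIs of Slc38a5 and Tfrc and a marker sum of at most 3; 161, 334, 236 and 74 barcodes) of the same libraries, as a description. Of 4535 genes 69 were higher and 47 lower than in arterial-gate ECs past 1.5-fold in all 4 libraries, and 58 were higher and 28 lower than in capillary-venous-gate ECs. Toward the arteries Car4 was higher by log2 ratios of 2.13 to 2.67, and Slc7a5, the LAT1 carrier of large neutral amino acids, by 1.55 to 2.05, with 6 of 20 BBB transporters higher and 1 lower in all 4 libraries. Mgp, an inhibitor of calcification, had ratios of -3.75 to -2.48. Toward the veins Slc26a10 was higher by 2.08 to 4.11 and Alpl, an alkaline phosphatase of arterial-side capillaries, by 2.44 to 5.10, and 6 of the 7 capillary-arterial genes outside the gate were higher in all 4 libraries, where against arterial-gate ECs 3 of the 7 were higher and 1 was lower. The capillary-venous gate was split from the members on the capillary-arterial markers, so higher levels of genes that go with those markers are partly built in.

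Several steps of the pairs were also present in these neighbours. Angpt2 was higher with the antibody by a log2 ratio of 3.54 in arterial-gate and 3.18 in capillary-venous-gate ECs, and higher in EC-Ang2 by 3.18 and 4.97. H2-K1 was lower with the antibody by a log2 ratio of -0.59 and -0.78 there. Scgb3a1 was higher with it by 2.57 and 2.01, but in EC-Ang2 its ratio was 0.91 in arterial-gate and -1.06 in capillary-venous-gate ECs, where the members had -0.08. Rgcc was lower in EC-Ang2 by ratios of -1.09 and -1.43. Vcam1 in EC-Ang2 had a ratio of -0.11 in arterial-gate and 0.89 in capillary-venous-gate ECs. With 1 library a condition, none of these differences between gates was tested.

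The control libraries differed in further genes that bear on any reading of the pairs. Mt1 and Mt2, metallothioneins that bind zinc and respond to stress hormones, were at 716 and 228 CPM in mIgG1, 892 and 416 in Ang2 Ab, 3433 and 2139 in Ctrl and 3344 and 2512 in EC-Ang2, so the transgenic series was higher throughout. Within the transgenic series the metallothioneins differed by a log2 ratio of -0.04 and 0.23. Which of substrain, age, day, toxin dose, antibody injections, transgene or library went with these steps cannot be told apart.

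Members also varied among themselves. At 2000 UMIs per member the variance-to-mean ratio of a gene was taken in each library and its lowest value ranked: over 1961 genes the median was 0.976, close to the value of counting noise alone, and the 95th percentile 1.62. Scgb3a1 stood second at 11.1, after Malat1 at 14.6, and was followed by Mgp at 9.97. Mt1 at 6.71, the stress-response genes Hspa1a at 6.14 and Fos at 5.95, and the glycoprotein genes Bsg at 5.68 and Igfbp7 at 5.42 were among the first 10. The study used Scgb3a1 to mark capillary-venous ECs, and Mgp was lower in the members than in arterial-gate ECs of every library.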

How the data were processed

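Per the labels and the study's methods, CD45+ leukocytes and CD31+ ECs were sorted in equal numbers from EAE spinal cords and run on the 10x Chromium platform. The authors deposited raw UMI counts of genes by barcode for each of the 4 libraries. The submitters' processing notes name Cell Ranger 2.1.1, Seurat 2.3.4 and the build mm10, and the annotation used for counting is not given in the sources used here. Gene positions were taken from GENCODE M21 on GRCm38. All deposited columns were assigned to a library.

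Members were gated on raw counts, their UMIs summed per library, scaled to 1000000 per library (CPM) and compared as log2 ratios with exact conditional Poisson intervals (95%). Where a library held 0 counts, a floor of 3 counts per library was used. No doublet caller was run: the immune and mural terms remove mixed barcodes of those kinds, doublets of 2 ECs were not removed, and the 5% of members with most UMIs were left out as an alternative. Free RNA was estimated from barcodes of 10 to 100 UMIs. Shares of members with a UMI were compared after thinning to 2000 UMIs, which every member reached, so 0 were left out. The study tested single cells as replicates, which was not done here.

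The members and the gene lists were chosen with earlier results of these data known. Genes were named by fixed rules: the gate genes, examples from each list by size of ratio and abundance, the 10 genes farthest from no change in each direction of each pair, the genes past 1.5-fold in opposite directions in both pairs, and the 10 most variable. Other genes named from the lists, and the 3 promoters printed, were chosen after their values were seen. A few genes that these rules name are not reported here. Sequences came from RefSeq (GRCm38.p6). Calculations used Python 3.11.15 with numpy 2.4.6, scipy 1.17.1 and pandas 2.3.3, were tested on simulated data, and were repeated under 14 alternative settings and 1 added later.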

Additional observations from a re-analysis of the deposited data

How the results depend on the processing

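Counting error was the only error that could be measured, and the smallest library, EC-Ang2 with 298 members, set the precision. No paired analysis was possible because each condition had 1 library. Leaving out members with red cell RNA was chosen after seeing the data. Genes higher and lower in Ang2 Ab than in mIgG1 (149 and 132) numbered 1090 and 840 with no filter on the share of members, 26 and 16 at 2-fold, and 299 and 240 with at least 3000 UMIs and under 5% mitochondrial UMIs. Genes higher in EC-Ang2 than in Ctrl (228) numbered 99 after thinning, 1166 with no filter, 57 at 2-fold and 350 at 3000 UMIs. Genes lower in it (150) numbered 1141 with no filter, 24 at 2-fold, 230 with a marker sum of at least 6 and 325 with tightened exclusions. Genes higher in Ctrl than in mIgG1 (166) numbered 107 after thinning, 1083 with no filter, 30 at 2-fold and 328 with tightened exclusions, and genes lower (168) numbered 110, 1121, 47 and, at 3000 UMIs, 264. With a marker sum of at least 6, members were 485 in Ang2 Ab and 180 in EC-Ang2, and 12.3, 14.0, 26.5 and 7.50% of endothelial-gate barcodes in mIgG1, Ang2 Ab, Ctrl and EC-Ang2. With tightened exclusions they were 116, 170, 261 and 79, or 5.22, 6.13, 9.46 and 4.21%. At 3000 UMIs there were 347 mIgG1 members and 344 for Ang2 Ab, or 14.8, 14.9, 30.8 and 10.1%. With the gate on thinned counts the share was 15.7% in mIgG1, 17.1% in Ang2 Ab and 8.29% in EC-Ang2, and without the deepest 5% it was 31.1% in Ctrl. The thresholds set most of these values by construction (fewer barcodes, fewer or more genes), and Ctrl kept the highest share and EC-Ang2 the lowest in each of these settings. Directions turned for the medians of the microglia and macrophage list between the control libraries with free RNA taken off (0.31) and of MHC class I in EC-Ang2 with the gate on thinned counts (-0.010), and, of the named genes past 1.5-fold, with tightened exclusions in the antibody pair for C1qa (0.030), Csf1 (0.57) and Vcam1 (0.39), and in the transgenic pair Axin2 (0.57), Cd82 (-0.034) and Hbb-bs (1.67). In the transgenic pair they also turned for Cd74 (-0.77) and H2-Aa (-0.61) with the gate on thinned counts, and for H2-Aa (-0.21) without the deepest 5%. Genes short of 1.5-fold turned too, among them, with tightened exclusions, Zbp1 (0.12) and Isg15 (0.15) in the antibody pair, Lcn2 (-0.85) in the transgenic pair and Igfbp4 (1.81) between the control libraries, and, with free RNA taken off, Apoe (0.17) in the antibody pair and, between the control libraries, C1qa (2.098). The free RNA estimate was set so that it takes up the UMIs of C1qa and 5 other genes of the microglia and macrophage list together. With it taken off, the C1qa ratio and the median of that list rest on residual counts and are not read as changes of direction. The cause of the other turns was not tested.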
